A study of Mus musculus with 7 samples.

Results

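The 8 genes described here act in or control cholesterol synthesis in mouse bone marrow cells: Hmgcs1, Idi1, Fdps, Fdft1, Sqle, Lss, Cyp51 and Insig1. The rule takes the probe sets annotated to exactly 1 of these symbols and sets no threshold on measured values, but the names were put forward with earlier results of these data known. All 8 of 8 were measured, by 14 of 16255 probe sets, among 8378 genes in all. The set was named for synthesis and uptake, but it holds 7 synthesis enzymes and 1 regulator and no uptake receptor.

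The marrow came from recipients of a bone marrow transplant that carried a mock (3 arrays), ABCG2 (2 arrays) or EZH2-Mt (2 arrays) transgene. ABCG2 is a transporter that pumps drugs out of cells, and EZH2 methylates histones as the catalytic subunit of a Polycomb complex. Mock and ABCG2 marrow was unsorted, while EZH2-Mt marrow, labelled MDS-like, was sorted into 1 GFP-positive and 1 GFP-negative array. All groups share the transplant. The sources used here give no strain, age, vector or promoter. The labels give no mouse numbers, and p-values therefore cover only the spread between these arrays, which may be technical.

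Cells build cholesterol from acetyl-CoA through mevalonate and isoprenoid units, which are joined to squalene, closed to lanosterol and trimmed to cholesterol. When sterols run low, the escort protein SCAP carries SREBP factors to the Golgi, where proteases free the part that activates genes of synthesis and uptake. Insig proteins hold SCAP back when sterols are plentiful, and dividing marrow cells need cholesterol for new membranes.

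Because the members are known SREBP targets, promoters are shown from RefSeq windows of assembly GRCm38.p6, which run from 250 bases before to 50 bases after the gene's start. The table matched 5 of 8 members (Hmgcs1, Idi1, Lss, Cyp51 and Insig1) and held no entry for Sqle, Fdft1 and Fdps. A form of the sterol regulatory element, TCACNCCAC on either strand, was found in 1 of the 5, in Hmgcs1 at 137 bases before the start, and in 1.24% of all 32851 windows. The CCAAT box stood in 5 of 5 and in 37.4% of all windows. The GC box GGGCGG, also searched on both strands, stood in 5 of 5 and in 35.7% of all windows. A match describes letters only, and a missing match says nothing about the factor. The Hmgcs1 window is printed for its sterol element, and those of Idi1 and Cyp51, chosen after their values were seen, because these were the most alike members over the arrays. Capitals mark TCACNCCAC and CCAAT on either strand, where ATTGG is CCAAT read from the other strand. The windows are chr13:119690101-119690400 (plus strand) for Hmgcs1, chr13:8885356-8885655 (plus strand) for Idi1 and chr5:4104648-4104947 (minus strand) for Cyp51, each written 5′ to 3′.
Hmgcs1: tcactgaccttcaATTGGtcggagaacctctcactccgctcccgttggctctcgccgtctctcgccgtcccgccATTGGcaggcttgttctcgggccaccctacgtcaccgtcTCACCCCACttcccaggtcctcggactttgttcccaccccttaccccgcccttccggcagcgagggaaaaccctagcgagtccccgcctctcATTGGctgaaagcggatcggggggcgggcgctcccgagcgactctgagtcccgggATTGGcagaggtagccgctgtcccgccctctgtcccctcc
Idi1: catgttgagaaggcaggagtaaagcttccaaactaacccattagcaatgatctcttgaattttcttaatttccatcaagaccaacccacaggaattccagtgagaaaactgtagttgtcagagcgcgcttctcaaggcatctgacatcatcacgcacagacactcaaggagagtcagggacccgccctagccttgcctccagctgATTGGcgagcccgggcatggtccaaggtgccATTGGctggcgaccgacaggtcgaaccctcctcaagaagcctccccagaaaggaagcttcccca
Cyp51: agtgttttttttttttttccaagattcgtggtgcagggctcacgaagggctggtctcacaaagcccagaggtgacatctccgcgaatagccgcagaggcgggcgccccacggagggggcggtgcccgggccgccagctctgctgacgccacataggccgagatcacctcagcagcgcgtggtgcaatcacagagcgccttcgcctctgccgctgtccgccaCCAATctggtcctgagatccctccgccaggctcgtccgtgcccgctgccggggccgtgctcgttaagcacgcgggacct

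Values are log2 signals of Affymetrix probe sets (base 2 is assumed), centred so that the median of the 7 arrays is 0, and a gene value is the mean over its probe sets. They give differences between arrays, not levels that could be compared between genes. The arrays labelled ABCG2 stood apart, with an SD over all probe sets of 1.06 and 1.13 log2 against 0.33 to 0.54 on the others. Control probe sets differed too. AFFX-BioB-M_at lay at -3.24 and -3.15 on ABCG2 arrays, against -0.48 to 0.077 on mock arrays. The Dap, Lys, Phe and Thr control probe sets were lower on both ABCG2 arrays than on every mock array. The part of this in the differences below was not tested. The titles of the ABCG2 arrays hold an additional tag, and if it marks a batch, batch and group cannot be told apart. The Abcg2 probe set was lower there (-0.92 and -0.91) than on mock arrays (-0.17 to 0.024), against the label. It was highest on the EZH2-Mt arrays (0.84 in GFP-negative and 1.35 in GFP-positive cells). The Ezh2 probe set was higher on ABCG2 arrays (0.35 and 0.68) than on mock arrays (-0.22 to 0.14). On the EZH2-Mt arrays it lay within the mock range (-0.14 in GFP-negative and -0.16 in GFP-positive cells). Whether these probe sets detect the transgenes was not given, so each direction below holds for arrays as labelled.

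In marrow labelled ABCG2, Fdps and Fdft1, the genes around the farnesyl diphosphate branch point, were lower than in mock marrow, while the other 6 members did not pass the test. Of 8 members 0 rose and 2 fell (limma, 2 against 3 arrays, adjusted p under 0.05 over all genes). Among all genes 35.6% rose, 26.2% fell and 61.8% passed either way, so fewer members passed than genes at large. The median member difference was -0.10 log2, against 0.15 over all genes. Both ABCG2 arrays lay below every mock array in 3 members (32.7% of all genes) and above in 0 (44.2% of all genes).

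**Figure D1:**
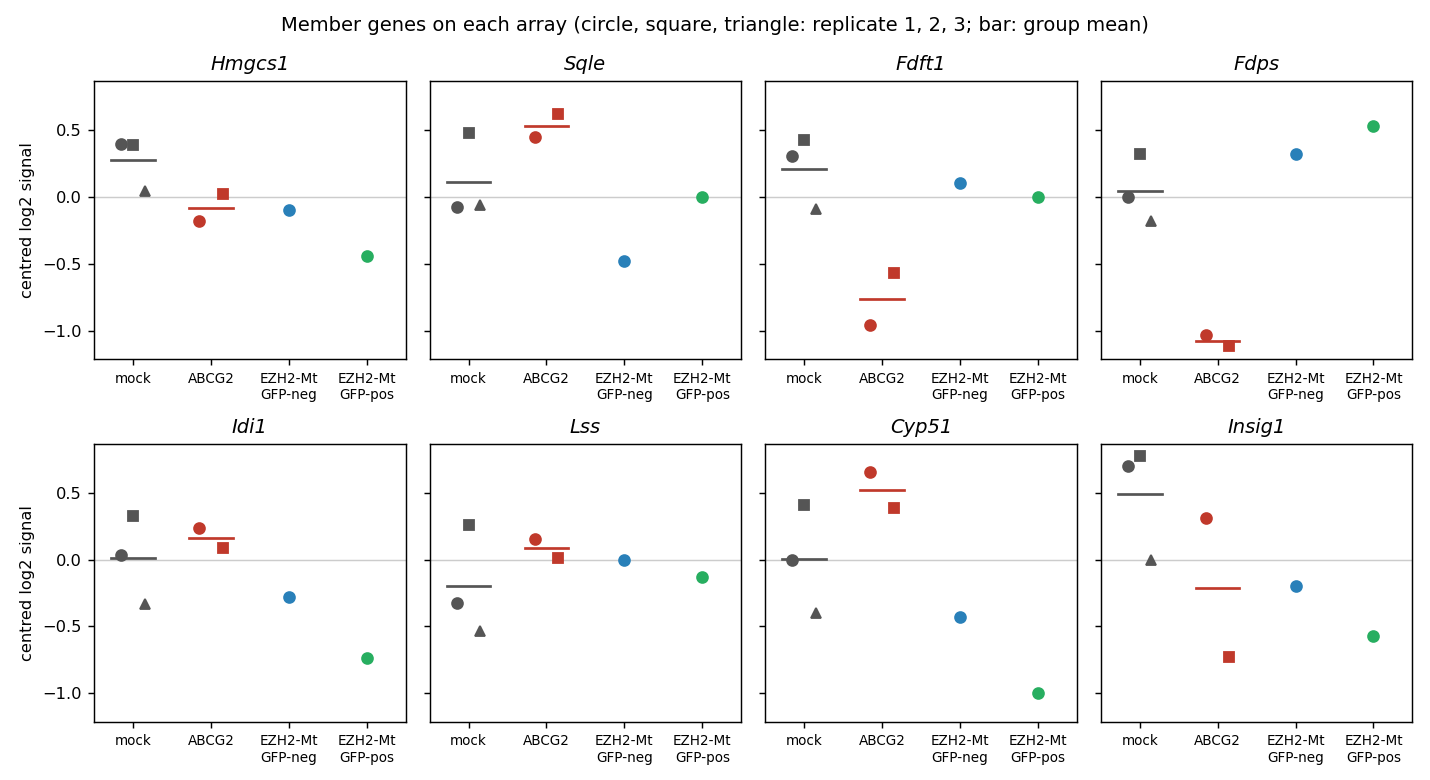
Centred log2 signal (vertical axis) of the 8 member genes on the 7 arrays by group (horizontal axis), with replicates as points and bars for group means. Fdps and Fdft1 were lower on both ABCG2 arrays than on any other array, and Cyp51 and Idi1 were lowest on the GFP-positive EZH2-Mt array.

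Hmgcs1 encodes cytosolic HMG-CoA synthase, an early enzyme of the mevalonate route. It lay at 0.39, 0.39 and 0.042 on mock arrays 1 to 3, at -0.18 and 0.021 on ABCG2 arrays 1 and 2, at -0.098 in GFP-negative and at -0.44 in GFP-positive cells. Both ABCG2 arrays lay below all mock arrays, though close to mock replicate 3, and the GFP-positive array was lowest. The ABCG2 difference of -0.36 ± 0.17 log2 (SE) did not pass (limma, adjusted p = 0.104; 95% interval -0.75 to 0.041), nor did it with quantile normalization (-0.56). Its 4 probe sets ran from -0.62 to -0.25, and 1 of them, 1433446_at, fell (-0.62 ± 0.14; limma, adjusted p = 0.00983).

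Idi1 encodes isopentenyl diphosphate isomerase, which interconverts the isoprenoid units. It lay at 0.034, 0.33 and -0.33 on mock arrays, at 0.23 and 0.087 on ABCG2 arrays, at -0.28 in GFP-negative and at -0.74 in GFP-positive cells. The ABCG2 values lay inside the mock range, and the GFP-positive value was the lowest. The difference of 0.15 ± 0.21 log2 did not pass (limma, adjusted p = 0.552; 95% interval -0.35 to 0.65), and its probe sets 1423804_a_at (0.42) and 1451122_at (-0.11) differed in sign. The gene difference ran from -0.020 without mock replicate 3 to 0.31 without mock replicate 2.

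Fdps encodes farnesyl diphosphate synthase, whose product feeds sterols, dolichol, ubiquinone and protein prenylation. It lay at 0, 0.32 and -0.18 on mock arrays, at -1.04 and -1.12 on ABCG2 arrays, at 0.32 in GFP-negative and at 0.53 in GFP-positive cells. Both ABCG2 arrays were far below all others, and the GFP-positive array was the highest. Fdps fell by 1.12 ± 0.18 log2 (limma, adjusted p = 0.00185; 2.18-fold lower). With quantile normalization it differed by -0.73 and did not pass (limma, adjusted p = 0.0837).

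Fdft1 encodes squalene synthase, the first enzyme committed to sterols. It lay at 0.30, 0.42 and -0.090 on mock arrays, at -0.96 and -0.57 on ABCG2 arrays, at 0.10 in GFP-negative and at 0 in GFP-positive cells. The ABCG2 arrays were again below every other array, and both sorted fractions lay within the mock range. Fdft1 fell by 0.98 ± 0.21 log2 (limma, adjusted p = 0.00632; 1.97-fold lower), with both probe sets lower, 1448130_at by 1.13 ± 0.21 and 1438322_x_at by 0.83 ± 0.22. With quantile normalization the gene differed by -0.82 and did not pass (limma, adjusted p = 0.0656). The call of 1438322_x_at was also lost without mock replicate 1 (0.0549), mock replicate 2 (0.0623) or ABCG2 replicate 1 (0.0852; limma adjusted p).

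Sqle encodes squalene epoxidase, a later control point. It lay at -0.077, 0.47 and -0.061 on mock arrays, at 0.44 and 0.62 on ABCG2 arrays, at -0.48 in GFP-negative and at 0 in GFP-positive cells. The ABCG2 arrays overlapped mock replicate 2 alone, and the GFP-negative array was lowest. The difference of 0.42 ± 0.20 log2 did not pass (limma, adjusted p = 0.115; 95% interval -0.068 to 0.91), but passed without mock replicate 2 (0.60, adjusted p = 0.0290). It shrank to 0.0076 with quantile normalization (limma, adjusted p = 0.987) and to 0.28 with array weights (adjusted p = 0.361).

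Lss encodes lanosterol synthase, which closes the sterol rings. It lay at -0.32, 0.26 and -0.53 on mock arrays, at 0.16 and 0.0099 on ABCG2 arrays, at 0 in GFP-negative and at -0.13 in GFP-positive cells. Every array of the other groups lay inside the mock range. The difference of 0.28 ± 0.24 log2 did not pass (limma, adjusted p = 0.346; 95% interval -0.30 to 0.86). It was 0.51 without mock replicate 2 (limma, adjusted p = 0.0556), 0.11 without mock replicate 3 (adjusted p = 0.700) and 0.11 with array weights.

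Cyp51 encodes lanosterol demethylase, the enzyme that first acts on lanosterol. It lay at 0, 0.41 and -0.40 on mock arrays, at 0.65 and 0.39 on ABCG2 arrays, at -0.43 in GFP-negative and at -0.996 in GFP-positive cells. The ABCG2 arrays overlapped mock replicate 2, and the GFP-positive array was lowest. The difference of 0.52 ± 0.25 log2 did not pass (limma, adjusted p = 0.110; 95% interval -0.075 to 1.11), but passed without mock replicate 2 (0.72, adjusted p = 0.0371). It was 0.32 without mock replicate 3 (limma, adjusted p = 0.247) and 0.22 with quantile normalization (adjusted p = 0.684). Its probe sets disagreed, since 1422533_at rose by 1.01 ± 0.26 (limma, adjusted p = 0.0160) while 1450646_at differed by 0.026 ± 0.27 (adjusted p = 0.943). The rise was lost with quantile normalization (0.68, limma adjusted p = 0.241) and without ABCG2 replicate 1 (0.87, adjusted p = 0.0660). Between the sorted fractions both probe sets had the same sign, -0.62 and -0.51 for GFP-positive minus GFP-negative.

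Insig1 encodes the protein that retains SCAP and is itself an SREBP target. It lay at 0.70, 0.77 and 0 on mock arrays, at 0.31 and -0.73 on ABCG2 arrays, at -0.20 in GFP-negative and at -0.57 in GFP-positive cells. Its ABCG2 arrays were 1.04 log2 apart, the widest gap of any member in that group. The difference of -0.70 ± 0.36 log2 did not pass (limma, adjusted p = 0.133; 95% interval -1.57 to 0.17), and it rested on which ABCG2 array was used. It was -1.22 without ABCG2 replicate 1 (limma, adjusted p = 0.0206) and -0.18 without ABCG2 replicate 2 (adjusted p = 0.662).

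**Figure D2:**
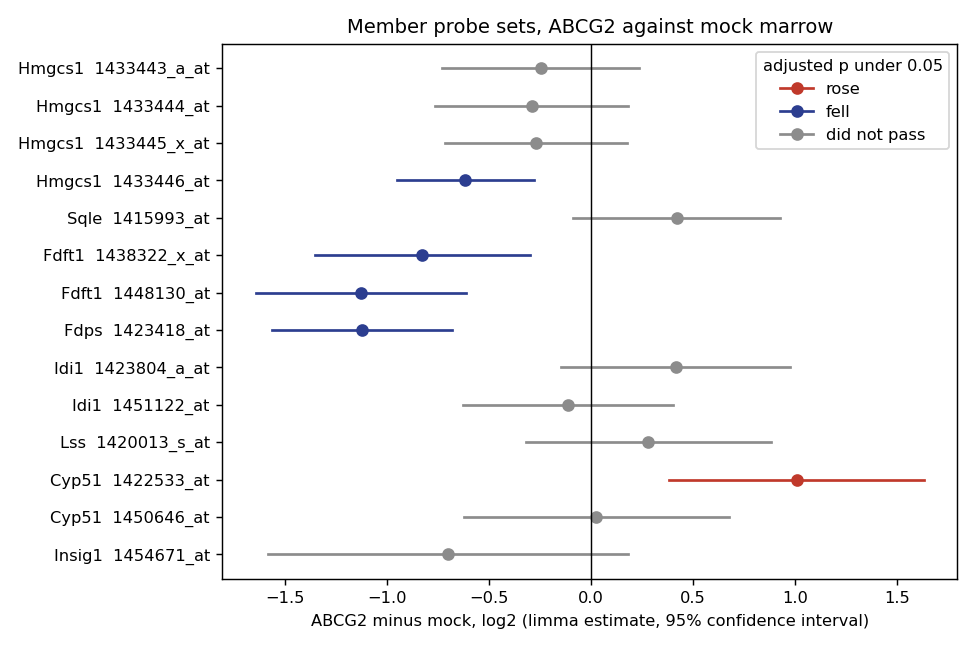
ABCG2 minus mock difference in log2 (horizontal axis) for the 14 member probe sets (vertical axis), as limma's estimate with its 95% confidence interval. Of the 14, 4 fell (of Hmgcs1, Fdft1 and Fdps), 1 of Cyp51 rose, and the intervals of the other 9 include 0.

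Over probe sets 4 of 14 fell and 1 rose, where 25.3% of all probe sets fell, 31.5% rose and 56.8% passed either way. For Hmgcs1 and Cyp51, 1 probe set passed and the others of the gene did not.

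Differences between members on the same array are unaffected by a shift of a whole array. They are not free of a difference in scale, and the ABCG2 arrays had the larger SD. With quantile normalization Cyp51 differed by 0.22 and Fdps by -0.73 between ABCG2 and mock, against 0.52 and -1.12 as reported. The pairs were chosen after the values were seen, for their contrast, so no test is given. They share members and are therefore not separate checks of each other. Cyp51 minus Fdps was 0, 0.094 and -0.22 log2 on mock arrays, 1.69 and 1.51 on ABCG2 arrays, -0.75 in GFP-negative and -1.53 in GFP-positive cells. Mock arrays thus lay between the ABCG2 arrays above and the EZH2-Mt arrays below. Idi1 minus Fdps had the same order, with -0.16 to 0.034 on mock arrays, 1.27 and 1.20 on ABCG2 arrays, -0.60 in GFP-negative and -1.27 in GFP-positive cells. Cyp51 minus Fdft1 did too, with -0.31 to -0.012, 1.61 and 0.96, -0.54 and -0.996. Sqle minus Fdft1 was 1.40 and 1.19 on ABCG2 arrays, while the GFP-positive value of 0 lay inside the mock range of -0.38 to 0.051 and the GFP-negative value of -0.58 below it.

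**Figure D3:**
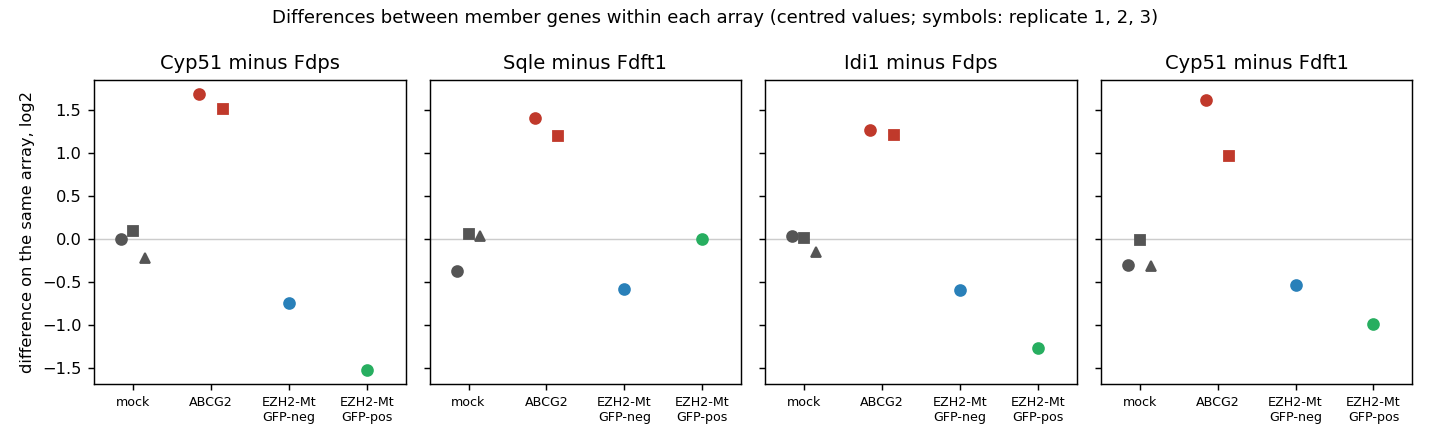
Differences in log2 between pairs of member genes on the same array (vertical axis) for the 7 arrays by group (horizontal axis), with replicates as points. Both ABCG2 arrays lay above all mock arrays in the 4 pairs, and the GFP-positive array lay below them in the 3 pairs that hold Cyp51 or Idi1.

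The sorted EZH2-Mt fractions have 1 array each, so their differences carry no p-value, and against mock they set sorted cells against unsorted marrow. In GFP-positive cells the difference from the mock mean was -1.06 log2 in Insig1, -0.999 in Cyp51, -0.75 in Idi1 and -0.71 in Hmgcs1. The Hmgcs1 probe set 1433443_a_at (-0.30) lay within the mock range. Fdps was higher by 0.48, and Fdft1, Sqle and Lss lay within the mock range. So 4 members lay below every mock array (33.6% of all genes) and 1 above (42.5%). A 2-fold difference was reached downward by 1 member, Insig1 (3.03% of all genes), and upward by 0 (4.33%). Leaving out mock replicate 2 gave a count of 0 downward, leaving out mock replicate 3 gave 2, and quantile normalization gave 4. The share of 3.03% holds for the main setting only. With quantile normalization the count over all genes rose as well, as the closing section gives. GFP-positive cells were below both ABCG2 arrays in 5 members (46.3% of all genes).

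In GFP-negative cells the difference from the mock mean was -0.69 log2 in Insig1, -0.59 in Sqle, -0.44 in Cyp51 and -0.37 in Hmgcs1. These 4 lay below every mock array (30.7% of all genes), and Fdps alone lay above (38.9%), by a margin too small to see after rounding. A 2-fold difference was reached by 0 members, where 2.12% of all genes were lower and 2.46% higher by that much. GFP-negative cells were above both ABCG2 arrays in 2 members, Fdft1 and Fdps (40.6% of all genes). Compared directly, 6 of 8 members were lower in GFP-positive than in GFP-negative cells (49% of all genes), with a median of -0.24 log2. The gaps were -0.56 in Cyp51, -0.46 in Idi1, -0.37 in Insig1 and -0.34 in Hmgcs1, with Sqle (0.48) and Fdps (0.21) higher. None was 2-fold (0 of 8, where 1.34% of all genes were lower and 1.77% higher by that much). The 4 Hmgcs1 probe sets disagreed, from -0.75 to 0.13, and 1433443_a_at was the 1 higher in GFP-positive cells. The mean of 8 measured erythroid markers was 1.84 in GFP-positive and 0.68 in GFP-negative cells, against -0.89 to 0.19 on mock arrays. Other marker means also differed between the fractions. In GFP-positive and GFP-negative cells they were 0.092 and 1.27 for 4 T and NK cell genes, 1.01 and 0.30 for 5 primary granule genes, 0.68 and 0.30 for 15 mature neutrophil genes, and 0.68 and 0.14 for 10 B lineage genes. The median of 7 hybridisation control probe sets was 2.22 and 0.96 on these arrays, against -0.33 to 0.066 on the other arrays. Of these 7, AFFX-BioB-M_at was much lower on ABCG2 arrays (-3.24 and -3.15), which the median does not show. The Dap, Lys, Phe and Thr control probe sets were higher on both sorted arrays than on every mock array. The part of these markers and controls in the member differences was not tested.

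Mock arrays themselves differed in these genes. All 8 members were higher in mock replicate 2 than in replicate 3, with a median gap of 0.60 log2, where 53.4% of all genes were higher and their median gap was 0.017. Mock replicate 1 exceeded replicate 3 in 7 members (49.4% of all genes) and replicate 2 in 1 member (47.9%). Replicate 3 was the lowest mock array in 35.6% of all genes. Mock SDs ran from 0.20 log2 for Hmgcs1 to 0.43 for Insig1.

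Across the 7 arrays Idi1 and Cyp51 were most alike (r = 0.97), followed by Fdft1 and Fdps (0.86), while Fdps and Cyp51 were most opposed (-0.70). These correlations describe arrays that share 1 centring and include the ABCG2 pair that stood apart. The mean of the members was 0.13, 0.42 and -0.19 on mock arrays, -0.047 and -0.16 on ABCG2 arrays, -0.13 in GFP-negative and -0.29 in GFP-positive cells. Most like it among 8370 other genes were Bbc3 (r = 0.93), which encodes the death promoter PUMA, Lemd2 (0.89), Ess2 (0.87), the retinal reductase gene Dhrs3 (0.87) and Nfxl1 (0.85).

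The other enzymes of sterol synthesis moved in both directions on the arrays labelled ABCG2, where 0 members rose and 2 fell. Of 13 measured genes of a list of 19, 5 fell, 3 rose and 5 did not pass (limma; 26.2% of all genes fell and 35.6% rose), with a median of 0.018 log2. Msmo1, a sterol methyl oxidase, lay at 0.39, 0.49 and -0.010 on mock arrays and at -1.01 and -1.32 on ABCG2 arrays, and fell by 1.46 ± 0.20 (limma, adjusted p = 0.000982). The desaturase gene Sc5d (-1.10 ± 0.17) and Nsdhl (-0.83 ± 0.15), of sterol demethylation, also fell. Dhcr7, a reductase at the end of the route, rose by 1.34 ± 0.15, and so did Cyb5r3 (0.93 ± 0.18), an electron donor. With quantile normalization the calls of Nsdhl (-0.65, limma adjusted p = 0.0638) and Cyb5r3 (0.75, adjusted p = 0.0555) were lost, and 2 enzymes fell and 1 rose.

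Genes of cholesterol uptake and transport within the cell mostly fell. Of 16 measured genes of a list of 21, 10 fell, 2 rose and 4 did not pass (limma; 26.2% of all genes fell and 35.6% rose), with a median of -0.77 log2. Stard4, a sterol carrier and SREBP target, lay at 0.25, 0.57 and 0.028 on mock arrays and at -1.38 and -1.62 on ABCG2 arrays, and fell by 1.78 ± 0.19 (limma, adjusted p = 0.000416). The scavenger receptor gene Cd36 fell by 1.94 ± 0.52 (limma, adjusted p = 0.0165). That call was lost without mock replicate 2 (limma, adjusted p = 0.0553), ABCG2 replicate 1 (0.0512) or ABCG2 replicate 2 (0.0561), and the difference was -0.73, also not passing, with quantile normalization. The sterol transfer genes Gramd1c (1.72 ± 0.24) and Gramd1a (0.60 ± 0.14) rose, the latter not with quantile normalization (0.32, limma adjusted p = 0.168). Npc1, which exports cholesterol from lysosomes, differed by 0.45 ± 0.25 (limma, adjusted p = 0.154) and did not pass. It was 0.65 without mock replicate 1 (limma, adjusted p = 0.0420), 0.24 without mock replicate 3 (adjusted p = 0.346) and 0.23 with quantile normalization (adjusted p = 0.627). Monocyte and macrophage markers moved with this list: 12 of 13 fell, and their mean was -2.83 to -2.69 on ABCG2 arrays against 0.45 to 0.83 on mock arrays. Fewer cells of a type and less RNA per cell cannot be told apart in whole marrow, and the part of these markers was not tested.

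Genes that process and control SREBP changed in both directions. Of 14 measured genes of a list of 16, 8 rose, 3 fell and 3 did not pass (limma; 35.6% of all genes rose and 26.2% fell), with a median of 0.41 log2. The number that rose was 3 with quantile normalization and 5 without mock replicate 1, mock replicate 3 or ABCG2 replicate 2. Scap lay at -0.63, 0 and -0.30 on mock arrays and at 1.24 and 1.52 on ABCG2 arrays, and rose by 1.69 ± 0.21 (limma, adjusted p = 0.000745). Mbtps1, the protease that cuts SREBP first, rose by 1.41 ± 0.14, while the Insig partner gene Erlin1 (-1.07 ± 0.13) and the ligase gene Rnf139 (-0.68 ± 0.15) fell. Srebf1, tied mainly to fatty acid synthesis, rose by 0.55 ± 0.18 (limma, adjusted p = 0.0383), and Srebf2, tied mainly to cholesterol synthesis, fell by 0.53 ± 0.18 (limma, adjusted p = 0.0395). The Srebf1 call was lost with quantile normalization (limma, adjusted p = 0.263) and array weights (0.0733), and without mock replicate 1 (0.0888) or mock replicate 3 (0.108). It was lost with the replicate block (limma, adjusted p = 0.0661) too, which gave the same estimate as leaving out mock replicate 3. Without ABCG2 replicate 2 Srebf1 differed by 0.33. The Srebf2 call did not hold under quantile normalization (limma, adjusted p = 0.157) or when leaving out mock replicate 1 (0.101), mock replicate 2 (0.120), ABCG2 replicate 1 (0.0677) or ABCG2 replicate 2 (0.138). Insig2 differed by 0.020 ± 0.15 (limma, adjusted p = 0.916). The values of Srebf2 and Insig2 are means over 2 and 3 probe sets. Those of largest variance differed by -0.89 (limma, adjusted p = 0.00791) and 0.38 (adjusted p = 0.146).

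Most measured genes of a list drawn up for SREBP-1 and fatty acids rose. Of 11 measured genes of a list of 16, 9 rose, 0 fell and 2 did not pass (limma; 35.6% of all genes rose and 26.2% fell), with a median of 1.29 log2, and 7 to 10 rose over the alternatives. Elovl6, a fatty acid elongase, lay at -0.039, 0.15 and 0 on mock arrays, at 3.79 and 3.42 on ABCG2 arrays, at -0.81 in GFP-negative and at -0.32 in GFP-positive cells. It rose by 3.57 ± 0.16 (limma, adjusted p = 1.57e-05; 11.9-fold), and the desaturase gene Fads2 by 2.80 ± 0.13 (limma, adjusted p = 1.64e-05; 6.99-fold). Among those that rose was Hadh (1.498 ± 0.22), an enzyme of fatty acid breakdown rather than synthesis. Without it, an alternative chosen after seeing the data, 8 of 10 rose, with a median of 1.25. Acly (0.11 ± 0.14) and Elovl5 (0.48 ± 0.21), named like Hadh after their values were seen, did not pass. On the same arrays 6 of 10 B lineage markers rose (mean 1.72 to 2.19, against -1.20 to -0.49 on mock arrays) and 15 of 15 mature neutrophil markers fell (-5.31 to -3.42, against -0.15 to 0.20). Of 7 stem and progenitor markers 5 rose (mean 1.19 to 1.28, against -0.37 to -0.056 on mock arrays). Of 36 cell cycle genes, 11 fell and 5 rose. The part of these in the lipid genes was not tested.

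**Figure D4:**
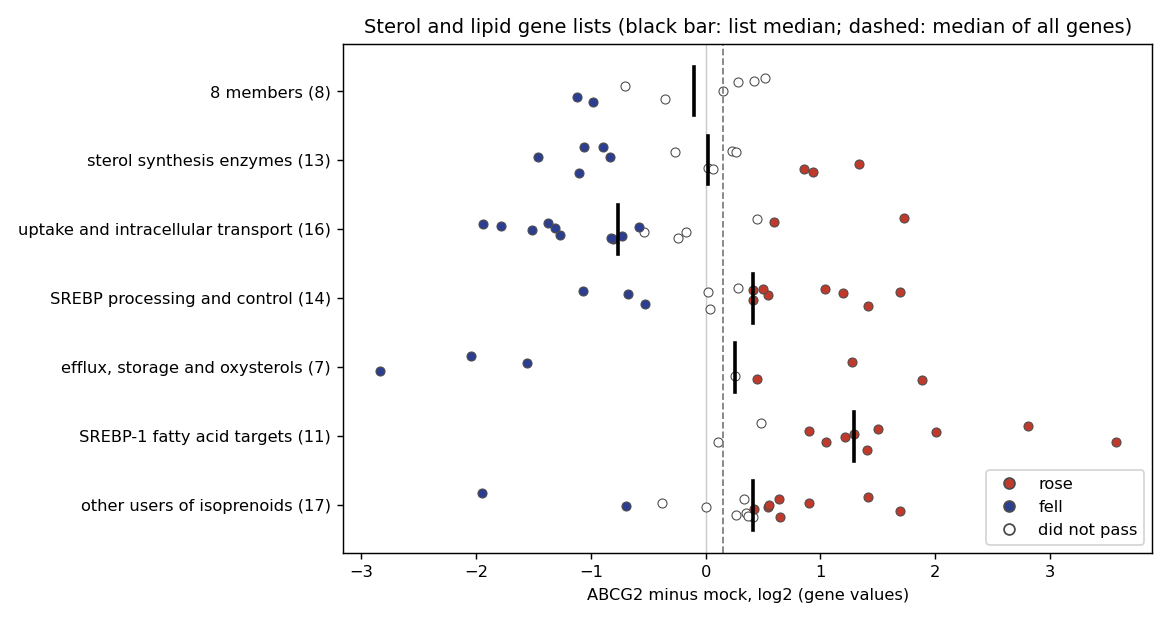
ABCG2 minus mock difference in log2 (horizontal axis) for the 8 members and the measured genes of 6 related lists (vertical axis), with list medians and, as a dashed line, the median of all genes, 0.15. The list of SREBP-1 fatty acid targets has a median of 1.29, and the uptake and transport list one of -0.77.

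Genes of cholesterol export, storage and oxysterols went both ways. Of 7 measured genes of a list of 18, 3 rose, 3 fell and 1 did not pass (limma; median 0.26). Among all genes 35.6% rose and 26.2% fell. The efflux pump genes Abca1 (1.89 ± 0.14) and Abcg1 (1.28 ± 0.21) rose, the latter not with quantile normalization (0.89, limma adjusted p = 0.0531). Apoe, an apolipoprotein gene of macrophages, fell by 2.83 ± 0.33, and Hsd3b7, of bile acid synthesis, by 2.04 ± 0.16. Of 17 measured genes that use isoprenoids for other ends (list of 20), 8 rose, 2 fell and 7 did not pass (limma; median 0.41; 35.6% of all genes rose and 26.2% fell), and 3 rose and 1 fell with quantile normalization. Trit1, which modifies transfer RNA, rose by 1.69 ± 0.12 and Coq2, of ubiquinone synthesis, by 1.42 ± 0.19. Zmpste24, the lamin protease gene, fell by 1.95 ± 0.13 and Dhdds, of dolichol synthesis, by 0.69 ± 0.19. With quantile normalization the calls of Coq2 (limma, adjusted p = 0.0735) and Dhdds (0.262) were lost. That of Dhdds was lost also without mock replicate 2 (limma, adjusted p = 0.0656) or mock replicate 3 (0.0580). It was lost with the replicate block (limma, adjusted p = 0.0802) too, which gave the same estimate as leaving out mock replicate 3. Without ABCG2 replicate 2 Dhdds differed by -0.48.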

How the data were processed

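RNA of 7 bone marrow samples was measured on Affymetrix Mouse430_2 arrays. Per the file headers, the deposited values are normalized log2 signals (base assumed) of probe sets that the authors kept for raw values of 3 to 120534.25 and a detection flag of Present or Marginal on 100% of arrays. The submitters' processing notes name MAS5, without a version. Scaling between arrays was not given in the sources used here.

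Of 16255 probe sets other than 54 controls, 14229 carried 1 symbol, 483 several and 1543 none. ABCG2 and mock were compared with limma 3.58.1 in R 4.3.3 (lmFit, eBayes, two-sided, Benjamini-Hochberg over all genes or all probe sets, threshold 0.05). In simulated data it called 0 of 50 genes changed by 0.5 log2 and 28 of 50 changed by 1 log2. Only 200 of 8378 genes were changed there, whereas 61.8% passed in the data, so its rates need not hold here. Comparisons with 1 array used a 2-fold call. The number of arrays limits the precision.

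Members and lists were chosen with earlier results of these data known. Genes named from each list were the 2 largest rises and falls past the threshold, with further genes fixed by name. Alternatives covered normalization, centring, weights, prior, replicate block, fit, annotation, probe set choice, fold and each array left out.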

Additional observations from a re-analysis of the deposited data

How the results depend on the processing

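With quantile normalization 1428 genes rose and 1452 fell between ABCG2 and mock (2983 and 2196 as reported), with 0 members falling. Of probe sets 2112 rose and 2350 fell (5122 and 4112 as reported), with 0 member probe sets rising and 1 falling. It left 1 sterol enzyme higher and 2 lower, 1 uptake gene and 3 SREBP control genes higher, and 3 isoprenoid users higher and 1 lower. With the probe set of largest variance per gene 1 member rose, Cyp51. With array weights 5 SREBP control genes rose. With 1 array left out, 0 to 2 members rose and 2 to 3 fell, 0 to 2 member probe sets rose and 3 to 4 fell, 5 to 7 SREBP control genes rose, and 1 to 2 isoprenoid users fell.

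Mock and ABCG2 titles share replicate numbers 1 and 2, but nothing says that they pair mice. Deviations of same-numbered arrays correlated at 0.067 and -0.060. The deviations of the 2 ABCG2 arrays mirror each other, so these values are not separate checks and do not decide whether arrays pair. With the replicate block 2572 genes rose and 1983 fell, 0 members rose and 2 fell, 4 SREBP control genes rose and 1 isoprenoid user fell. Replicate 3 exists in mock alone, so the block gave the same differences as leaving out mock replicate 3 and is not a separate check of them.

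Signs turned in small differences that did not pass. Idi1 was -0.014 with quantile normalization, -0.020 with the replicate block and -0.020 to 0.31 with 1 array left out. Insig2 was -0.027 with quantile normalization and -0.16 to 0.20 with 1 array left out. The Idi1 probe set 1451122_at ran from -0.27 to 0.065, and the Cyp51 probe set 1450646_at from -0.14 to 0.28, with 1 array left out. The latter was -0.24 with quantile normalization, -0.14 with array weights and -0.14 with the replicate block.

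For GFP-positive minus GFP-negative, quantile normalization gave 296 genes 2-fold higher and 282 lower, and a 1.5-fold call 660 and 557. For GFP-positive minus mock, quantile normalization gave 682 genes lower, 4 of them members (254 and 1 as reported). A 1.5-fold call gave 1264 higher and 890 lower, 4 of them members. With 1 mock array left out 0 to 2 members were lower. For GFP-negative minus mock, quantile normalization gave 558 genes higher and 642 lower, 2 of them members, and a 1.5-fold call 860 and 603, 2 of them members.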
